A study of Mus musculus with 8 samples.

Results

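Inhibitory checkpoint receptors of CD4+ T cells were examined in Irak1-/- and wt cells that had shared the same colitic hosts. They were represented by 9 genes, Pdcd1, Ctla4, Lag3, Havcr2, Tigit, Btla, Cd200, Lilrb4a and Cd200r1. Each was taken from the probe set annotated to that symbol alone, and each had 1 such probe set. These are 9 of the 22180 genes with a singly annotated probe set, and all 9 were among the 13308 genes bright enough to be tested. Cd200 is strictly the ligand of the set, and Cd200r1 is its receptor.

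The study compared 4 arrays of Irak1-/- cells carrying CD45.2 with 4 arrays of wt cells carrying CD45.1, both of the C57BL/6 strain. Naive (CD62L+) CD4+ cells of each kind had been injected in equal numbers into Rag1-/- mice, which have no T or B cells of their own but keep their myeloid cells. After 14 days the CD3+CD4+ cells were sorted by CD45 form from the mesenteric lymph nodes to a stated purity above 99.5%. With 2 recipients pooled in each of the 4 replicate experiments, and 1 array of each genotype per experiment, there were 4 pairs. The CD45 form went with the genotype in every pair, so effects of the CD45-linked region and of Irak1 cannot be told apart. The labels give no ages.

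Checkpoint receptors are surface molecules that lower the response of a T cell to antigen and costimulation. Most are induced by activation itself, and they act by competing for the ligands of costimulatory receptors or by bringing phosphatases to the antigen receptor. Loss of PD-1 or CTLA-4 signalling in mice leads to autoimmune inflammation, and blocking either in patients can cause colitis. IRAK1 is a kinase that relays signals from IL-1 family and Toll-like receptors to NF-kappaB.

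The values were log2 levels, so a difference of 1 is a factor of 2. The Irak1-/- array of replicate 3 stood apart over all probe sets, with correlations of 0.950 to 0.957 to the other arrays, against 0.969 to 0.981 among those 7 arrays. Irak1 itself averaged 6.84 ± 0.167 on Irak1-/- arrays and 6.77 ± 0.332 on wt arrays (SD, n = 4 each). Which part of the gene was deleted is not stated in the labels, and the level therefore checks nothing. Ptprc, the CD45 gene, averaged 11.01 ± 0.0581 on Irak1-/- arrays and 10.90 ± 0.0753 on wt arrays. The T cell genes Cd3d, Cd3e, Cd3g and Cd4 had mean levels of 11.26, 10.71, 11.01 and 8.98 over the 8 arrays. Levels of different probe sets depend on the probes as well as the RNA, and no order of abundance among the 9 genes is given here.

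None of the 9 genes differed between genotypes at an adjusted p under 0.05, where 0.0751% of all genes tested did, 0.0676% higher and 0.00751% lower. The test was limma with the pair as a block, Benjamini-Hochberg adjustment over all 13308 genes, two-sided. At an unadjusted p under 0.05 there were 2 of 9, Cd200 and Btla, both higher on Irak1-/- arrays. That is 22.2% of the genes, against 6.70% of all genes in either direction and 2.88% in the higher direction. The 9 genes were chosen with earlier results of these data known, so these shares are not an independent comparison. The count of 2 was 1 without pair 1, 1 without pair 3 and 0 without pair 4. In a fit without pairs it was 1 over all 8 arrays, and also 1 when the Irak1-/- array of replicate 3 was left out. The same 2 genes were higher in all 4 pairs, as were 5.26% of all genes, and none of the 9 was lower in all 4, as were 8.91% of all genes. Fitted differences were positive for 5 and negative for 4, with a median of 0.01, beside -0.03 for all genes tested. In sorted but bulk samples, a smaller share of cells with a transcript and less of it per cell cannot be told apart.

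**Figure D1:**
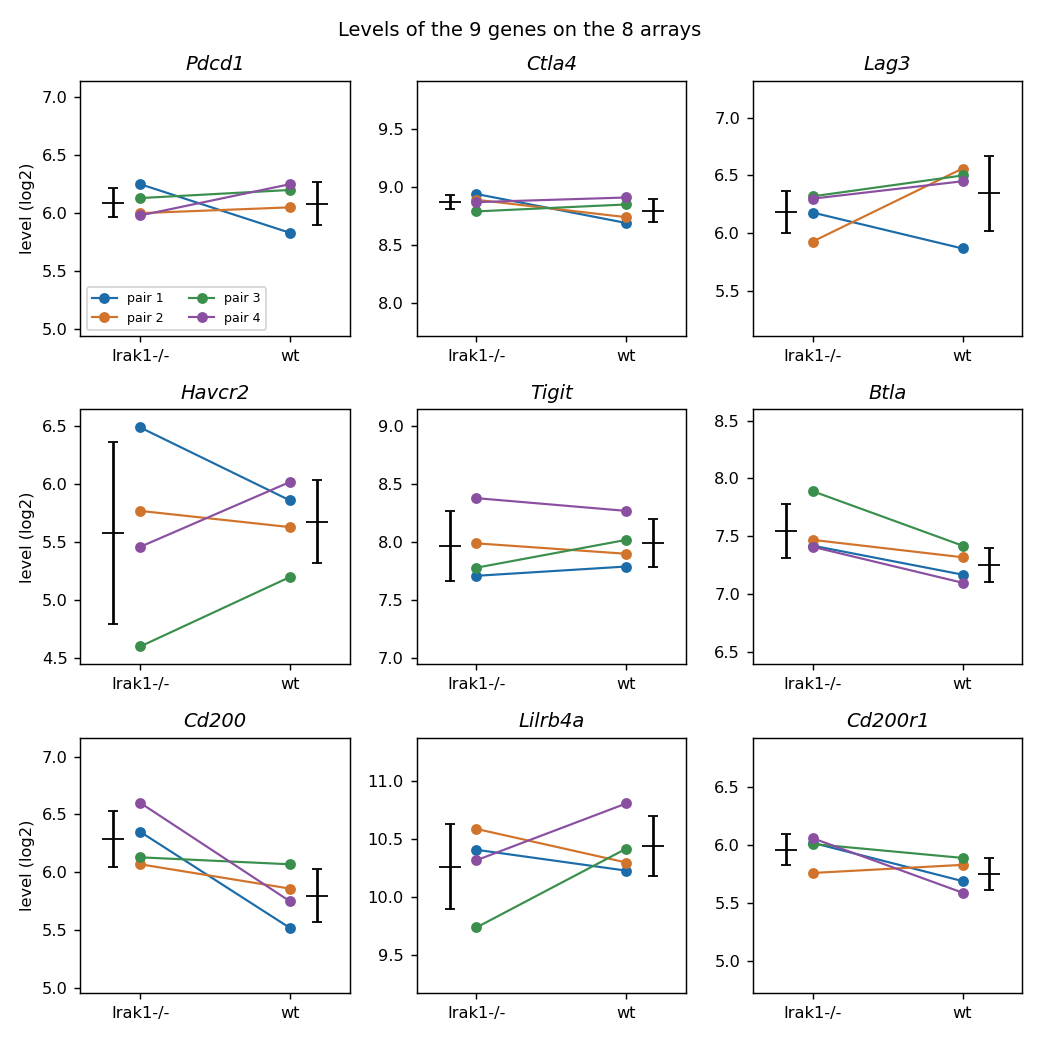
Levels on the log2 scale of each gene on each array, with Irak1-/- arrays left and wt arrays right, each panel with an axis of the same length. Coloured lines join the arrays of a pair, black marks are group means with their SD (n = 4), and Cd200 and Btla slope downward from Irak1-/- to wt in every pair.

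Cd200, a surface glycoprotein of activated lymphocytes that restrains cells bearing its receptor, had the largest fitted difference of the 9 genes. Its levels were 6.35, 6.07, 6.13 and 6.60 on the Irak1-/- arrays of replicates 1 to 4, against 5.52, 5.86, 6.07 and 5.75 on the wt arrays of the same replicates. The groups did not overlap, as was so for 3.04% of all genes in either direction and 1.17% with Irak1-/- higher, yet the gap between the lowest Irak1-/- array and the highest wt array was only 0.009. The log2 difference was 0.49 (SE 0.157), or 1.40-fold (95% confidence interval 1.10 to 1.80). Its unadjusted limma p was 0.0128 and its adjusted p 0.580. Pairs 1 and 4 had differences of 0.82 and 0.86, and pairs 2 and 3 had 0.22 and 0.07.

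Cd200r1, the inhibitory receptor for CD200, is best known on myeloid cells and is also found on T cells. It read 6.02, 5.76, 6.01 and 6.06 on Irak1-/- arrays, against 5.69, 5.83, 5.89 and 5.59 on wt arrays. The groups overlapped through the Irak1-/- array of replicate 2, which lay below 2 of the wt arrays. Irak1-/- arrays were higher in 3 of 4 pairs, by a fitted 0.21 (SE 0.123, 95% interval -0.07 to 0.49, limma adjusted p = 0.833). As with Cd200, pairs 1 and 4 had the larger differences, 0.33 and 0.47.

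Btla, an immunoglobulin-family receptor that binds the TNF receptor family member HVEM, was the other gene higher in all 4 pairs. Its levels were 7.42, 7.47, 7.89 and 7.41 on Irak1-/- arrays, against 7.17, 7.32, 7.42 and 7.10 on wt arrays. The groups overlapped by 1 array on each side, and the Irak1-/- array of replicate 3, the one that stood apart, was the highest. The log2 difference was 0.30 (SE 0.109), or 1.23-fold (95% confidence interval 1.03 to 1.46), with an unadjusted limma p of 0.0250 and an adjusted p of 0.655. Without pair 3 it was 0.24, and without that array alone, in a fit without pairs, 0.18. Tnfrsf14, which encodes HVEM, had a difference of 0.16 (adjusted p = 0.915).

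Btla and Cd200 are next to each other on mouse chromosome 16, with no protein-coding gene between them in the RefSeq gene table of GRCm38.p6. Tigit and Cd200r1 lie on the same stretch, which holds 24 protein-coding genes from Tigit to Cd200. Of these, 20 were tested, and 11 had positive differences, Btla and Cd200 among them. The median of the 20 was 0.01, beside -0.03 for all genes tested. A shared effect over the stretch was not tested. None of the 20 was called, and 3 had an unadjusted limma p under 0.05, of which 2 were Btla and Cd200, beside 6.70% of all genes tested.

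The promoters of the neighbours Btla and Cd200 are shown because these were the genes higher in every pair, and that of Havcr2 because its level varied most from array to array. Each is the 250 bases before the gene's start in RefSeq, build GRCm38.p6, read 5′ to 3′ on the strand of the gene. The places are chr16:45224087-45224336 on the plus strand for Btla, chr16:45409054-45409303 on the minus strand for Cd200 and chr11:46454681-46454930 on the plus strand for Havcr2. Capitals mark a match to a searched motif.
Btla: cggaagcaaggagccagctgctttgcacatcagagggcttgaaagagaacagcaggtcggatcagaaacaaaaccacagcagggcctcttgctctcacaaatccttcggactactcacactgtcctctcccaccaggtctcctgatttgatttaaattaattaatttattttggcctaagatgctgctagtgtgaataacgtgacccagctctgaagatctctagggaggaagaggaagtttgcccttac
Cd200: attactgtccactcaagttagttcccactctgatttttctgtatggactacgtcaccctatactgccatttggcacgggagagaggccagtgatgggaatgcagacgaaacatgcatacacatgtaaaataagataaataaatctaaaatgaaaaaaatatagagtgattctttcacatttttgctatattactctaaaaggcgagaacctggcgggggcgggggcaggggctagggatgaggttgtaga
Havcr2: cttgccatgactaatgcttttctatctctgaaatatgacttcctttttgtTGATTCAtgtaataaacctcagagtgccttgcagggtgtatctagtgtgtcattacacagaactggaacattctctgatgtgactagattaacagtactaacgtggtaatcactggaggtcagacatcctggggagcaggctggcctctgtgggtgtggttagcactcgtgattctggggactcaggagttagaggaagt
Motifs searched on both strands were NF-kappaB as GGG and CC with any 5 bases between them, NFAT as GGAAA and AP-1 as TGANTCA, with N any base. NF-kappaB and NFAT letters can overlap. Neither Btla nor Cd200 held a match, and Havcr2 held 1 AP-1 match, which begins 200 bases before the start. Promoters were found for 6 of the 9 genes. The NF-kappaB letters were in 0 of the 6 and in 45.8% of all 32851 promoters, the NFAT letters in 3 (Pdcd1, Ctla4 and Tigit) and 55.6%, and the AP-1 letters in 1 and 6.75%. Btla and Cd200 had 47.2% and 42.4% G and C bases, against a median of 52.4% over all promoters.

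**Figure D2:**
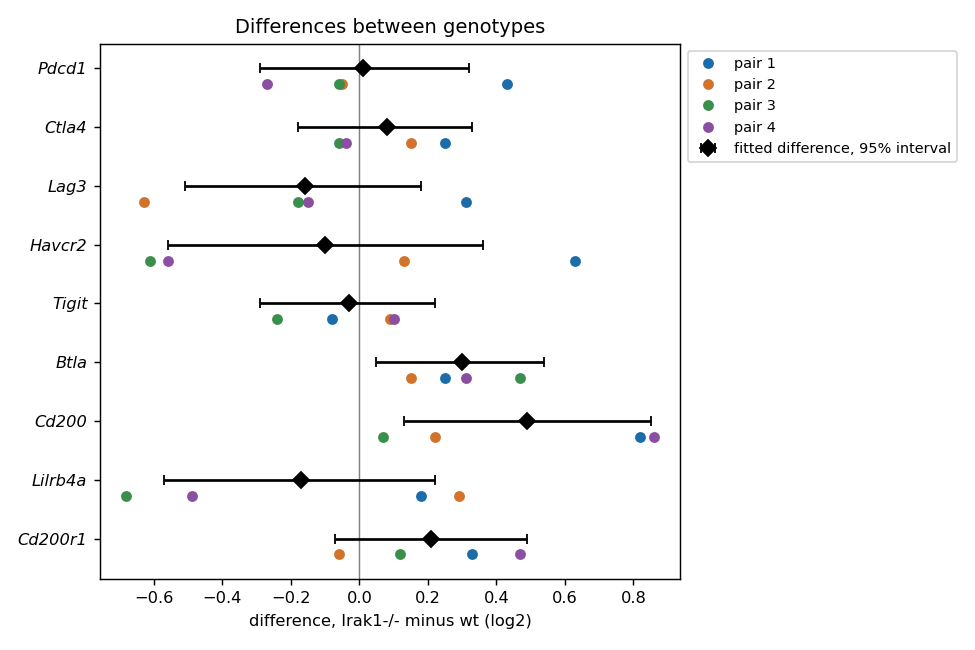
Differences of the 9 genes, Irak1-/- minus wt, on the log2 scale. Diamonds are fitted differences with 95% confidence intervals, dots below them are the 4 pairs, and the intervals of Cd200 (0.13 to 0.85) and Btla (0.05 to 0.54) lie above 0 before any adjustment.

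Pdcd1 and Ctla4, the genes of the receptors blocked in cancer therapy, had narrow ranges. Pdcd1 encodes PD-1, which brings a phosphatase to the antigen receptor and CD28. It read 6.25, 6.00, 6.13 and 5.98 on Irak1-/- arrays, against 5.83, 6.05, 6.20 and 6.25 on wt arrays. The groups overlapped across most of their range, and only pair 1, with a difference of 0.43, was higher on the Irak1-/- array. On the log2 scale the fitted difference came to 0.01 (SE 0.134, 95% interval -0.29 to 0.32, limma adjusted p = 0.992), and to -0.13 without pair 1.

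Ctla4 encodes the receptor that competes with CD28 for CD80 and CD86. It read 8.94, 8.89, 8.79 and 8.87 on Irak1-/- arrays, against 8.69, 8.74, 8.85 and 8.91 on wt arrays. Its spread over all 8 arrays, 0.25, was the smallest of the 9 genes, and 2 of 4 pairs were higher. The fold difference was 1.05 with a 95% interval from 0.88 to 1.25 (limma adjusted p = 0.948).

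Lag3 and Tigit likewise showed no difference beyond their spread. Lag3 encodes a CD4-related receptor for MHC class II. Its levels were 6.18, 5.93, 6.32 and 6.30 on Irak1-/- arrays, against 5.87, 6.56, 6.50 and 6.45 on wt arrays. It was lower in 3 of 4 pairs, with -0.63 in pair 2, and higher by 0.31 in pair 1, whose wt array was the lowest of all. Over all pairs it had a fitted log2 difference of -0.16 (SE 0.152, limma adjusted p = 0.915), and without pairs 1 and 2 in turn it was -0.32 and -0.01.

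Tigit encodes a receptor that competes with CD226 for the poliovirus receptor. It read 7.71, 7.99, 7.78 and 8.38 on Irak1-/- arrays, against 7.79, 7.90, 8.02 and 8.27 on wt arrays. Within each pair the genotypes lay close together, while both arrays of pair 4 were the highest of their group and both arrays of pair 1 the lowest. A fitted log2 difference of -0.03 (SE 0.112, limma adjusted p = 0.977) became 0.04 without pair 3.

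Havcr2 and Lilrb4a had pair differences of both signs, as had 7 of the 9 genes. Havcr2 encodes TIM-3, a receptor of Th1 and myeloid cells. Its levels were 6.49, 5.77, 4.60 and 5.46 on Irak1-/- arrays, against 5.86, 5.63, 5.20 and 6.02 on wt arrays. Pair differences were 0.63, 0.13, -0.61 and -0.56, and its spread over the 8 arrays, 1.90, was the largest of the 9 genes. Over all pairs the fitted log2 difference was -0.10 (SE 0.202, limma adjusted p = 0.957). It turned to 0.07 without pair 3, to 0.05 without pair 4 and to 0.23 without the Irak1-/- array of replicate 3 in a fit without pairs.

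Lilrb4a encodes an immunoglobulin-like inhibitory receptor known from mast cells and myeloid cells. It read 10.41, 10.59, 9.74 and 10.32 on Irak1-/- arrays, against 10.23, 10.30, 10.42 and 10.81 on wt arrays. As for Havcr2, pairs 1 and 2 were higher on the Irak1-/- array (0.18 and 0.29) and pairs 3 and 4 lower (-0.68 and -0.49). A fitted log2 difference of -0.17 (SE 0.174, limma adjusted p = 0.924) stood against -0.01 without pair 3, and it was 0.00169 without the Irak1-/- array of replicate 3 in a fit without pairs. Lilr4b is a close paralog, and a second probe set is annotated to both genes. That probe set had pair differences of 0.03, 0.20, -0.44 and -0.36, so its signs by pair were those of Lilrb4a. Signals of the paralogs may not be fully separate.

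The replicate experiments were set against each other in a test added after the data were seen, an F test of the pair term in the same limma model. At an unadjusted p under 0.05 limma found Havcr2 and Tigit, with 0.0109 and 0.0312, which is 2 of 9 genes or 22.2%, against 9.66% of all genes. None of the 13308 genes passed after adjustment, with adjusted p values of 0.413 for Havcr2 and 0.493 for Tigit. Averaged over both genotypes, Havcr2 was highest in pair 1 at 6.18 and lowest in pair 3 at 4.90, and Tigit was lowest in pair 1 at 7.75 and highest in pair 4 at 8.33. By pair, 8 of the 9 genes were higher on the Irak1-/- array in pair 1, 6 in pair 2, 3 in pair 3 and 4 in pair 4. Their median differences in pairs 1 to 4 were 0.31, 0.13, -0.06 and -0.04. Over all genes tested the medians were -0.00, -0.04, -0.06 and 0.00. The share of all genes higher in each pair was not counted.

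**Figure D3:**
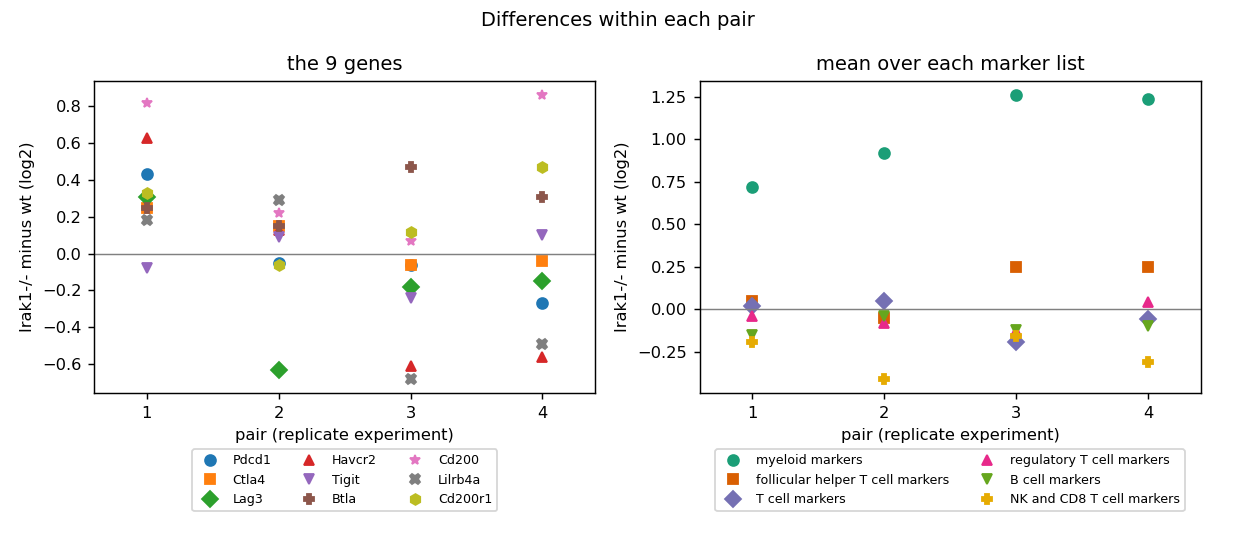
Differences within each of the 4 pairs, Irak1-/- minus wt, on the log2 scale, for the 9 genes at left and as means over lists of cell type markers at right. The mean over the myeloid markers was above 0 in every pair (0.72, 0.92, 1.26 and 1.24), though not each marker was. Havcr2 and Lilrb4a lay above 0 in pairs 1 and 2 and below 0 in pairs 3 and 4.

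Markers of other cells moved with genotype beside these values. Of 18 myeloid markers, 16 were tested and 5 rose on Irak1-/- arrays at an adjusted limma p under 0.05. Their mean level was 5.22 to 5.82 on Irak1-/- arrays and 4.37 to 4.58 on wt arrays. Differences were positive for 15 of the 16, and 10 were higher in all 4 pairs, as were 5.26% of all genes. The exception, Cx3cr1, had -0.24 (limma adjusted p = 0.778) and was lower in all 4 pairs, as were 8.91% of all genes. Cd14 and Ms4a7, too dim to test, averaged 3.03 and 3.28 over the 8 arrays, with differences of 0.43 and 0.21. Havcr2, Lilrb4a and Cd200r1 are also expressed by myeloid cells, and the mean myeloid difference was largest in pairs 3 and 4, at 1.26 and 1.24. In those pairs Havcr2 and Lilrb4a were lower on the Irak1-/- array, and Cd200r1 was higher, by 0.12 and 0.47. In pairs 1 and 2 Cd200r1 had differences of 0.33 and -0.06. The part of myeloid cells in the values of these genes was not tested. With the myeloid mean as a covariate beside the pairs, the log2 differences were 0.79 for Cd200 (SE 0.787), -0.06 for Btla (SE 0.551) and -0.02 for Cd200r1 (SE 0.623), and standard errors were several times those without it. In the same fit Havcr2 had 2.28 (SE 0.544) and Lilrb4a 1.57 (SE 0.613). The myeloid levels did not overlap between genotypes, so this fit cannot separate genotype from the covariate. Its differences refer to equal myeloid levels, which no pair had. None of the 9 genes was called there, where their lowest adjusted limma p was 0.998 and 2, Havcr2 and Lilrb4a, had an unadjusted p under 0.05.

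Btla, Cd200 and Pdcd1 are also typical of follicular helper T cells. Of 7 markers of these cells, 6 were tested and none was called. At an unadjusted limma p under 0.05, 2 were higher, as were 2.88% of all genes. These were Cxcr5, the follicle-homing receptor, at 0.46 (adjusted p = 0.642) and Il21 at 0.34 (adjusted p = 0.736). Of the others tested, Tox2 had 0.17, Bcl6 0.09, Pou2af1 0.07 and Sh2d1a -0.11. Pair means of the list were 0.05, -0.05, 0.25 and 0.25. The part of a follicular helper share in the Btla and Cd200 values was not tested. Ctla4 and Tigit are typical of regulatory T cells, whose 6 markers had pair means between -0.13 and 0.04, with Foxp3 at -0.06 (adjusted p = 0.960). NK and CD8 T cell markers had negative means in all pairs, from -0.41 to -0.16, and none of the 7 was called. At an unadjusted limma p under 0.05, 4 were lower, as were 3.82% of all genes. The other 3, Cd8b1, Ncr1 and Klrb1c, had positive differences of 0.31, 0.05 and 0.04. Mast cell and basophil markers had 1 of 6 genes bright enough to test, Kit at a mean of 4.10, and Fcer1a averaged 1.82. B cell markers (3 tested) and dendritic cell markers (5 tested) had no call, and Ms4a1 of B cells averaged 2.54. Of the 5 dendritic cell markers, 2 had positive and 3 negative differences. At an unadjusted limma p under 0.05, 1 of them was lower, as were 3.82% of all genes. This was Itgax at -0.59 (adjusted p = 0.501), lower in all 4 pairs, as were 8.91% of all genes.

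Ligands of the receptors were called in 1 of 14 tested cases, a gene of MHC class II. H2-Aa averaged 6.22 ± 0.329 on Irak1-/- arrays and 4.48 ± 0.426 on wt arrays (SD, n = 4 each), a log2 difference of 1.74 (SE 0.151, limma adjusted p = 0.00317). H2-Ab1, whose product pairs with that of H2-Aa, and H2-Eb1, a further MHC class II gene, had differences of 1.77 and 0.82 with adjusted p values of 0.0798 and 0.163. These 3 genes were higher in 4 of 4 pairs, as were 5.26% of all genes. They stood beside the myeloid markers given above, and the part of myeloid cells in this was not tested. The median of the ligands was 0.04. Of 16 ligand genes named, Fgl1 and Nectin3 were too dim to test.

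Other inhibitory receptors had 0 of 9 genes called in either direction and a median difference of -0.15, against -0.03 for all genes. At an unadjusted limma p under 0.05, 2 were lower, as were 3.82% of all genes. Klrg1, a receptor of terminal effector cells, had a difference of -0.50 (SE 0.175, adjusted p = 0.628), with pair values of 0.00, -0.69, -1.08 and -0.21. Cd101 had -0.32 (adjusted p = 0.746) and was lower in 4 of 4 pairs, as were 8.91% of all genes. Lair1, a collagen receptor, also had -0.32 (adjusted p = 0.792). Adora2a was not analysed here.

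Activating partners, which apart from Cd40lg share ligands or families with the inhibitory receptors, had 0 of 4 genes called and a median of 0.09. Icos, the CD28-related costimulator, had 0.14 (adjusted p = 0.893), Cd226, the activating rival of TIGIT, had -0.20 (adjusted p = 0.908), and Cd40lg had 0.13 (adjusted p = 0.918). Signalling partners had 0 of 14 called and a median of -0.05. In that list Trat1, an adaptor that helps carry CTLA-4 to the surface, had 0.31 (adjusted p = 0.824). Dok1 and Dok2, adaptors that dampen receptor signals, had -0.20 and -0.11 (adjusted p = 0.860 and 0.934). At an unadjusted limma p under 0.05, none of these 18 genes was found.

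Regulators of transcription and of checkpoint expression had 0 of 16 genes called and a median of -0.07. At an unadjusted limma p under 0.05, 1 was lower, as were 3.82% of all genes. That gene was Nr4a1, an orphan nuclear receptor switched on by antigen recognition and linked to checkpoint expression in exhausted T cells. It averaged 7.49 ± 0.398 on Irak1-/- arrays and 8.25 ± 0.184 on wt arrays (SD, n = 4 each). The groups did not overlap, as was so for 3.04% of all genes in either direction. Its difference was -0.76 (SE 0.138, adjusted p = 0.162). Nr4a3, of the same family, had -0.23 (adjusted p = 0.778) and was lower in 4 of 4 pairs, as were 8.91% of all genes. Maf, a factor known to promote several inhibitory receptors, had 0.45 (SE 0.283, adjusted p = 0.862), with pair values of 0.92, -0.04, -0.53 and 1.45. Tcf7 was not analysed here.

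**Figure D4:**
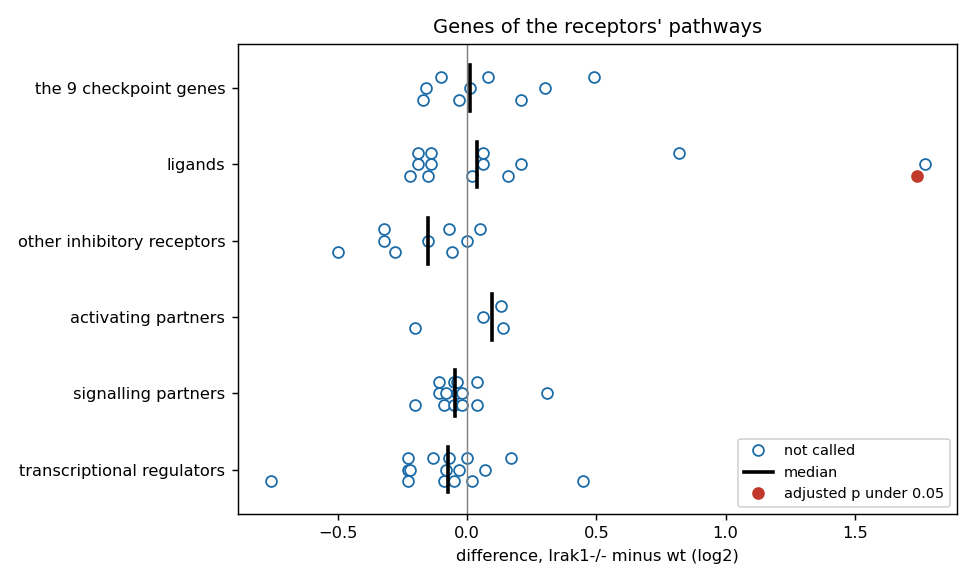
Fitted differences, Irak1-/- minus wt, on the log2 scale for each tested gene of the 9 checkpoint genes and of the lists around them, with bars at the list medians. The filled point is H2-Aa at 1.74, the only gene of these lists with an adjusted p under 0.05, and medians lie between -0.15 and 0.09.

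The tested gene most like each of the 9 across the 8 arrays was found by Pearson's r of the deposited levels. It was Sh2b3 for Btla (r = 0.98), Zfp955a for Cd200 (r = 0.95), Rabif for Cd200r1 (r = 0.96), Polr3d for Havcr2 (r = 0.97) and Gm14133 for Lilrb4a (r = 0.99). It was Brpf3 for Pdcd1 (r = 0.96), Mapkbp1 for Ctla4 (r = 0.93), Acox3 for Lag3 (r = 0.96) and Smim38 for Tigit (r = 0.95). None of these was another checkpoint gene. Between 6 (Ctla4) and 81 (Havcr2) genes had r above 0.9, and arrays of a pair share recipients, so these values only describe the 8 arrays.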

How the data were processed

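RNA of 8 samples, 4 Irak1-/- and 4 wt, was biotin-labelled and hybridized to Affymetrix arrays, per the labels. The deposited values are the authors' log2 levels for 41345 probe sets, from 0.681 to 14.0, with array medians between 4.25 and 4.31. How background was corrected and levels were summarized or normalized is not stated in the labels, so the distance of a level from background is unknown. Probe sets took genes from the platform annotation, where 23521 carried 1 symbol, 1814 several and 16010 none, and symbols were updated by gene identifier for 23328 with the RefSeq table of GRCm38.p6. For each gene the singly annotated probe set with the highest mean was kept, and genes under the 40th percentile of mean level (lowest kept 3.90) were left out.

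Tests used limma 3.58.1 (lmFit and eBayes, R 4.3.3) with batch as a block, because the arrays of a batch came from the same pooled recipients. Their deviations from the group means correlated at 0.18, 0.14, 0.20 and 0.08 in pairs 1 to 4. The procedure was tested on simulated data. No 2 arrays shared identical values at over 0.24% of probe sets. Precision is limited by having 4 arrays per group. Alternatives were other blocks, scalings, level filters and probe set rules, trend and robust settings, left-out pairs, a left-out array and a myeloid covariate.

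The 9 genes, the lists and the alternatives were chosen with earlier results of these data known. Named are the 9 genes, Irak1 and Ptprc, up to 3 genes of smallest p per list, markers for a list's levels, and the most correlated gene for each of the 9. Tnfrsf14 and the genes in the closing observations were added after their values were seen. So were the cell type markers Cx3cr1, Cxcr5, Il21, Tox2, Bcl6, Pou2af1, Sh2d1a, Foxp3, Cd8b1, Ncr1, Klrb1c and Itgax.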

Additional observations from a re-analysis of the deposited data

Results flagged for a closer look

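In 3 of 18 groups of 4 arrays, 1 array lay far from the other arrays of its group. The rule used for this has a nominal chance rate of about 5% of groups, which was not measured on these arrays. The share of groups flagged over all genes tested was not counted, so an excess among the 9 genes was not tested. Lag3 read 5.87 on the wt array of replicate 1, while the other wt arrays read 6.45 to 6.56. Btla read 7.89 on the Irak1-/- array of replicate 3, the array that stood apart over all probe sets, and 7.41 to 7.47 on the other Irak1-/- arrays. Cd200r1 read 5.76 on the Irak1-/- array of replicate 2, against 6.01 to 6.06 on the other Irak1-/- arrays.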

How the results depend on the processing

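No alternative called any of the 9 genes, with adjusted p from 0.450 to 0.998 for Cd200 and from 0.557 to 0.998 for Btla. Of 126 differences of the 9 genes under 14 alternatives, 113 kept their sign. Cd200 and Ctla4 were positive in all 14, and Btla and Cd200r1 in 13. With pairs left out in turn, differences ran from -0.13 to 0.11 for Pdcd1, from -0.35 to 0.07 for Havcr2 (0.07 without pair 3 and 0.05 without pair 4) and from -0.08 to 0.04 for Tigit. With the Irak1-/- array of replicate 3 omitted and no pairing, Havcr2 turned to 0.23, Tigit to 0.03 and Lilrb4a to 0.00169. With the myeloid covariate, Lag3 turned to 0.27, Havcr2 to 2.28, Tigit to 0.000252, Btla to -0.06, Lilrb4a to 1.57 and Cd200r1 to -0.02. In that fit the medians were 0.67 for the 9 genes, 0.34 for other inhibitory receptors, 0.47 for activating partners, 0.17 for signalling partners and 0.33 for regulators, and 1 gene was called in all. The cause of these shifts was not tested, and this covariate cannot be separated from genotype in these arrays. The number of genes called, 10, was 16 with a random block, 21 with median centring, 16 with trend and robust settings and between 7 and 17 with a pair left out, the last without pair 1. Without the pairing as a block it was 11, and no call among the 9 genes changed. The batch F test called none of the 9 genes under any of its alternatives.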

Other observations

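Havcr2, Lilrb4a and Ctla4 were higher on the Irak1-/- array in pairs 1 and 2 and lower in pairs 3 and 4, as were 5.38% of all genes tested. Cd226, Cd4 and Cd3g, picked for this after their values were seen, had the same signs, with 0.34, 0.04, -0.58 and -0.58 for Cd226. The other T cell markers measured, Cd3d, Cd3e, Cd2, Cd28 and Lat, did not have these signs. Pairs 1 and 4 had the larger differences for Cd200 (0.82 and 0.86), Cd200r1 (0.33 and 0.47) and Maf (0.92 and 1.45). Trat1 had its larger differences there as well (0.80 and 0.50). Maf and Trat1 were picked for this after their values were seen, and the share of all genes with this order was not counted.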
